A study of Mus musculus with 4 samples.

Results

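The ubiquitin pathway genes described here are 51 genes of the authors' fold change list for distal and proximal nail matrix. Nail matrix, at the nail root, is an epithelium of dividing cells that feeds the nail plate, and its distal part lies nearer the nail bed. Distal and proximal matrix were each microdissected from mice aged 8 weeks, with 2 arrays for distal and 2 for proximal matrix. No genotype, strain, sex or treatment is given in the labels, and they do not say whether the arrays of a region came from separate animals, so the spread between them may be technical. Members were chosen by the authors' own measured fold on these arrays: a gene had to be in their list, at a fold of at least 1.99 between regions, and to carry a Gene Ontology process or function that names ubiquitin or modification-dependent protein catabolism. The list holds 1133 genes with 1 symbol, of which 53 carry such a term, and 2 were left out by the rule, Usp39 for its RNA splicing term and Dcun1d1 by name. The comparison of the regions is therefore a description for these genes, with no test. A gene with several listed probe sets (sets of oligonucleotides matching its transcript) was read by the brightest.

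Ubiquitin is a small protein that cells attach to other proteins in a relay of an activating enzyme (E1), a conjugating enzyme (E2) and a ligase (E3). Chains of it send proteins to the proteasome, and deubiquitinases take it off again. Ligases choose the substrates and fall into HECT enzymes, which take over the ubiquitin themselves, and RING enzymes, among them the modular cullin ligases with exchangeable substrate receptors. In stratified epithelia the pathway is known to turn over growth factor receptors, cell cycle proteins and p53.

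Promoter sequences are shown for the leading pair of genes in each direction by size of difference, among members whose regions did not overlap, whose 4 arrays were above background and which have 1 entry in the RefSeq promoter table (GRCm38.p6, 250 bases before to 50 after the gene's start, 5′ to 3′ on the gene's strand). Capitals mark matches, on either strand, to the letters CCAAT (known as the box of this name), to CCGGAAG (known as an ETS site), to TTTNNCGC (known as an E2F site), to TGACNNNGC (known as the core of an antioxidant response element) or to TATAAA (known as a TATA box). No bases were shared by matches to different motifs in these 4 windows. Rnf7 had higher intensities in distal matrix, and Mdm2 and Trip12 in proximal matrix. Fbxl20 was higher in distal matrix by its brighter probe set and in proximal matrix by its dimmer one. The windows of Fbxl20, Rnf7, Mdm2 and Trip12 lie at chr11:98149567-98149866, minus strand, at chr9:96478626-96478925, minus strand, at chr10:117710709-117711008, minus strand and at chr1:84839255-84839554, minus strand, in that order.
Fbxl20: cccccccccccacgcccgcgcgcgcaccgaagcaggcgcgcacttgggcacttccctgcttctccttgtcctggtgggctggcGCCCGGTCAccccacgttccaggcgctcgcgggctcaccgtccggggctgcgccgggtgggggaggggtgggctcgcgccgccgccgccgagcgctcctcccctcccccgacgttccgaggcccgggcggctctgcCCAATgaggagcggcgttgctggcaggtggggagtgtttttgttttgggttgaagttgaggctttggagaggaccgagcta
Rnf7: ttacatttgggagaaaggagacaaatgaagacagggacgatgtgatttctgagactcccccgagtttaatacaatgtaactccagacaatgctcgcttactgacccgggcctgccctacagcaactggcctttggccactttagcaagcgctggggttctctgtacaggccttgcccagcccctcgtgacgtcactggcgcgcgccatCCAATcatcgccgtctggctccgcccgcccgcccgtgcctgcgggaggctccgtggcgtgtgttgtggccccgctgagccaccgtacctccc
Mdm2: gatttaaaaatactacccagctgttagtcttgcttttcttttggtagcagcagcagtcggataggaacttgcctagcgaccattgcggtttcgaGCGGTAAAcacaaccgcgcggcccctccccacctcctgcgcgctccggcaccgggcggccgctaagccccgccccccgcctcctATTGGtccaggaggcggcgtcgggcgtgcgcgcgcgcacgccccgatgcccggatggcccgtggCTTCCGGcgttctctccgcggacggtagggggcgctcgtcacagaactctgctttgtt
Trip12: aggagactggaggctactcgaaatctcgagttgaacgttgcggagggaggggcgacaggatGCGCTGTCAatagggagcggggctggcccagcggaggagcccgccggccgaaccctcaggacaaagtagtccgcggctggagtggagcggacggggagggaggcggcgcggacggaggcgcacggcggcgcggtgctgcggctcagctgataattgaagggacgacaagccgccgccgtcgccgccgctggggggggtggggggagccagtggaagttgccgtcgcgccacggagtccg
The window of Fbxl20 held a CCAAT box and an antioxidant response element core, that of Rnf7 a CCAAT box, that of Mdm2 a CCAAT box, an ETS site and an E2F site, and that of Trip12 an antioxidant response element core. Across the 55 promoter entries of the 41 members that the table holds, 40.0% had a CCAAT box, against 38.2% of 21263 entries of protein-coding genes. The shares were 25.5% against 11.6% for the ETS site, 27.3% against 13.0% for the antioxidant response element core, 9.09% against 6.24% for the E2F site and 7.27% against 12.6% for the TATA box. Median GC content was 63.7% in the members' entries and 56.3% in all entries. Such matches are letters in a window and not shown to be sites in use.

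Most members had the higher intensity in proximal matrix: 40 of the 51, against 11 with the higher intensity in distal matrix. Of the other listed genes 67.8% were higher in proximal matrix, against 78.4% of these 51. The median log2 difference (distal minus proximal, so that a negative value means higher in proximal matrix) was -1.04 for the members, -0.93 for the other 1082 listed genes and -0.06 for all 45037 probe sets. In 38 members the regions did not overlap, 7 with both distal arrays above both proximal arrays and 31 the other way, where 34.7% of all probe sets did not overlap, 16.4% with distal and 18.3% with proximal matrix above. The share was 74.5% of the members and 73.0% of the other listed genes. Because the members were picked for their fold, these counts only describe them. In bulk tissue, fewer cells of a type and less RNA per cell cannot be told apart.

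limma called 0 of the 51 at a Benjamini-Hochberg adjusted p under 0.05, where 0.0666% of all probe sets were called (0.0533% towards distal and 0.0133% towards proximal matrix). Without adjustment, 23 members had a p under 0.05, against 5.09% of all probe sets, and nothing is read from this because the rule used the same contrast. With the replicate number as a block limma called 3, Fbxl20, Mdm2 and Siah1a (0.2% of all probe sets), and without distal replicate 1 or distal replicate 2 it called 13 and 9 (2.0% and 1.41%). Without proximal replicate 1 or proximal replicate 2 limma called far fewer probe sets over the whole table than without a distal array. In these fits the members' median log2 difference (distal minus proximal) was -1.01 and -1.04. Leaving out an array leaves 1 array in its region, so nothing is read from the calls of such fits. An exact permutation test of 2 arrays against 2 cannot give a two-sided p below 0.333.

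All 51 members were above background on at least 1 array, and 28 on all 4. Background was taken as the brightest of 27 Bacillus subtilis control probe sets on each array, at 58.0 and 81.0 in distal matrix and 96.8 and 45.4 in proximal matrix. Both distal arrays were above it for 31 members and both proximal arrays for 45. Beside genes marked in later paragraphs, Nlk and Socs4 were not above it on proximal replicate 1. Atg12, Birc6, Dzip3 and Ube2f were not above it on distal replicate 2. The members' median level stood at the 85.7th percentile of all probe sets, and at the 81.0th for the other listed genes. Of the nail and hair keratinocyte markers, 15 were listed, with summed intensities of 22384 and 26962 in distal matrix and 9561 and 10395 in proximal matrix. Krt42 and Krt1 carried most of the distal sums, while Krt15, Hoxc13 and Lef1 of the same list were higher in proximal matrix, Krt15 with 612 and 906 in distal matrix, against 2306 and 2372 in proximal matrix. Dcn, a fibroblast gene, was the single listed marker of another cell type, with 243 and 309.7 in distal matrix, against 984 and 1049 in proximal matrix, so it was higher where most members were, and its part in these results was not tested. The markers of endothelial, immune, pigment, Schwann, muscle, bone and blood cells were not among the listed genes, so their intensities cannot be named here. For Gapdh, the control probe set at the 3′ end read brighter than that at the 5′ end, by ratios of 9.40 and 6.73 in distal and 7.73 and 8.15 in proximal matrix, while the same ratios for actin were 0.52 and 0.59 in distal and 0.56 and 0.64 in proximal matrix.

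**Figure D1:**
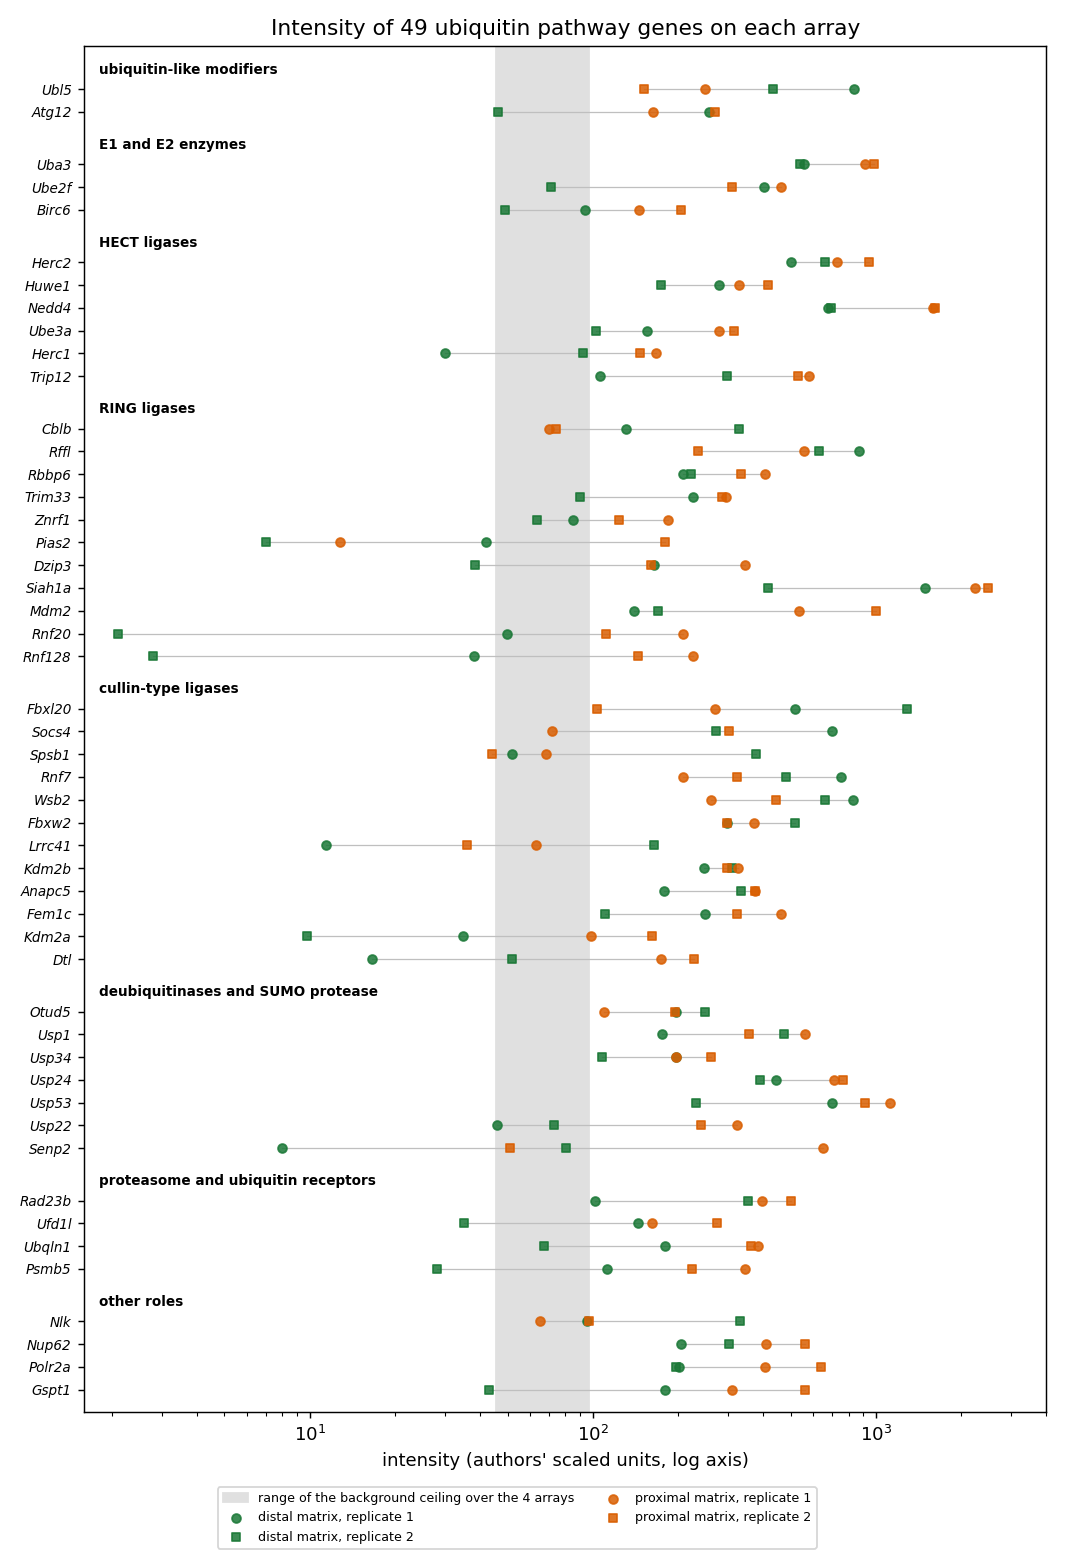
Intensity of each of 49 of the genes (log axis, authors' scaled units) on the 2 distal arrays (green) and the 2 proximal arrays (orange), grouped by role, with circles for replicate 1 and squares for replicate 2. The grey band spans the background ceilings of the 4 arrays, 45.4 to 96.8. The 6 HECT ligases shown have both proximal points to the right of both distal points, and distal replicate 2 is the leftmost point for 23 of the 49 genes.

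The 7 HECT ligases all had higher intensities in proximal matrix, and in all 7 the regions did not overlap (18.3% of all probe sets had proximal matrix above without overlap, and 73.0% of the other listed genes did not overlap in either direction), with a median log2 difference of -1.22. Nedd4, which ubiquitinates membrane proteins, was the brightest of them and had intensities of 679 and 693 for distal replicates 1 and 2 and 1594 and 1609 for proximal replicates 1 and 2. Its replicates lay close together in both regions, and its log2 difference was -1.22 ± 0.34 (limma SE, n = 2 arrays per region), a 2.34-fold higher level in proximal matrix. Trip12, a large nuclear ligase, had 106 and 297 for distal replicates 1 and 2 and 578 and 531 for proximal replicates 1 and 2, with a log2 difference of -1.64 ± 0.56. The distal arrays of Trip12 lay far apart, but both were below the proximal ones. Ube3a, the gene of the E6-associated protein that is lost in Angelman syndrome, had 156 and 102 in distal matrix, against 279.8 and 314 in proximal matrix. Herc1 and Herc2 encode giant ligases, and Herc2 acts in the response to DNA breaks. Herc2 had 502 and 659.9 in distal matrix, against 726 and 944 in proximal matrix, a narrow separation with a log2 difference of -0.52 ± 0.40. For Herc1 distal replicate 1, at 30, was not above background, and the values were 30 and 92.4 in distal matrix, against 168 and 147 in proximal matrix. Huwe1, a ligase of many substrates including p53 and Myc, had 279.7 and 174 in distal matrix, against 329 and 415 in proximal matrix.

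Among the 11 RING and SUMO ligases, 9 had higher intensities in proximal and 2 in distal matrix. Mdm2, the ligase that holds p53 low, had the highest fold in the authors' deposited table among the members' brightest probe sets, 4.85. In the value table its intensities were 139 and 170.2 for distal replicates 1 and 2 and 535 and 1002 for proximal replicates 1 and 2, and both distal arrays lay well below both proximal ones (log2 difference -2.25 ± 0.52, 4.75-fold). Siah1a, a RING ligase of the p53 and Wnt pathways, was the brightest member, with 1484 and 416 for distal replicates 1 and 2 and 2229.9 and 2478 for proximal replicates 1 and 2. Its distal arrays differed from each other more than distal replicate 1 did from the proximal arrays, and the log2 difference was -1.58 ± 0.40, or -0.66 without distal replicate 2. Siah1a has close copies in the mouse genome, so its probe set may read more than its own transcript. Rnf128, a membrane-bound ligase first known from T cells as GRAIL, had 38.1 and 2.8 for distal replicates 1 and 2 and 227 and 145 for proximal replicates 1 and 2. Both distal values were not above background, so proximal matrix was at least 2.64-fold higher. Rnf20, which ubiquitinates histone H2B, was likewise not above background in distal matrix, at 49.8 and 2.1, against 208 and 111 in proximal matrix, at least 2.22-fold higher there.

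Among the other RING ligases with higher proximal intensity, Rbbp6, a RING protein that binds p53 and the retinoblastoma protein, had 208 and 223 in distal matrix, against 406 and 334 in proximal matrix, and Trim33, a nuclear ligase of the TGF-beta pathway, had 226 and 89.9 in distal matrix, against 296 and 286 in proximal matrix. Znrf1, a ligase known from nerve cells, had 85.4 and 63.6 in distal matrix, against 185 and 124 in proximal matrix, with distal replicate 2 not above background. The regions did not overlap for any of these 3. Dzip3, a ligase of histone H2A, had 164 and 38.4 in distal matrix, against 346 and 159.9 in proximal matrix, and its regions overlapped because distal replicate 1 exceeded proximal replicate 2. Pias2, a SUMO ligase, was above background on proximal replicate 2 alone, with 42.1 and 7.0 in distal matrix, against 12.8 and 179.9 in proximal matrix, and its log2 difference of -1.48 turned to 0.42 without that array. Cblb and Rffl went the other way. Cblb, which damps signals of receptor tyrosine kinases and of the T cell receptor, had 131 and 327 for distal replicates 1 and 2 and 70.0 and 73.9 for proximal replicates 1 and 2, with no overlap (log2 difference 1.52 ± 0.80). Its proximal replicate 1 was not above background. Rffl, a RING protein with a FYVE-like domain found on endosomes, had 873 and 631 in distal matrix, against 558 and 236 in proximal matrix, with a narrow gap between distal replicate 2 and proximal replicate 1 (log2 difference 1.03 ± 0.47).

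The cullin-type ligases, with their adaptors and the anaphase-promoting complex, went both ways: 6 of 12 had higher mean log2 intensities in distal and 6 in proximal matrix, and their median log2 difference was 0.05. By the authors' deposited table the split was 7 in distal and 5 in proximal matrix, with a median of 1.02, and Lrrc41 is the gene whose side differs. Rnf7, the RING subunit of CUL5 ligases, had 753 and 481 for distal replicates 1 and 2 and 208 and 322 for proximal replicates 1 and 2, without overlap (log2 difference 1.22 ± 0.49, 2.33-fold higher in distal matrix). Wsb2, a SOCS box receptor with WD repeats, had 827 and 662 for distal replicates 1 and 2 and 262 and 445 for proximal replicates 1 and 2 and a log2 difference of 1.12 ± 0.45, also without overlap. Socs4, a suppressor of cytokine and EGF receptor signalling, had 702 and 272 in distal matrix, against 71.6 and 304 in proximal matrix, and overlapped because proximal replicate 2 exceeded distal replicate 2. Spsb1, a SOCS box protein with a SPRY domain, had 51.9 and 376 in distal matrix, against 68.2 and 44.0 in proximal matrix. Distal replicate 2 alone was above background there. The bound of at least 2.11-fold towards distal matrix rests on that array, and the log2 difference of 1.35 turned to -0.078 without it.

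Fbxl20, an F-box receptor of SCF ligases known from synapses, had 516 and 1285 for distal replicates 1 and 2 and 269.6 and 104 for proximal replicates 1 and 2 by its brighter probe set (log2 difference 2.28 ± 0.55, 4.87-fold). Its dimmer probe set was higher in proximal matrix, and the mean of both gave -1.03, so its direction depends on the probe set. Fbxw2, another F-box receptor, had 298 and 518 in distal matrix, against 370.0 and 297 in proximal matrix. Its regions overlapped, and its log2 difference of 0.24 turned to -0.15 without distal replicate 2 and to -0.27 when arrays were scaled to hybridization controls. Dtl, the CUL4 receptor that removes Cdt1 during DNA replication, had 16.6 and 51.7 for distal replicates 1 and 2 and 175 and 228 for proximal replicates 1 and 2. Neither distal array was above background, so Dtl was at least 2.91-fold higher in proximal matrix. Fem1c, a CUL2 receptor, had 249 and 110.1 in distal matrix, against 463 and 324 in proximal matrix without overlap, and Anapc5, a scaffold subunit of the anaphase-promoting complex, had 178 and 333 in distal matrix, against 374 and 372 in proximal matrix, with a small gap. Kdm2a and Kdm2b are histone demethylases with an F-box. Kdm2a was not above background in distal matrix, at 34.9 and 9.8, against 98.3 and 161 in proximal matrix, at least 1.84-fold higher there. Kdm2b scarcely differed in the value table, with 247 and 309 in distal matrix, against 325 and 296 in proximal matrix. Lrrc41, a leucine-rich repeat adaptor, was above background on distal replicate 2 alone, at 11.4 and 164 in distal matrix, against 63.1 and 35.8 in proximal matrix.

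**Figure D2:**
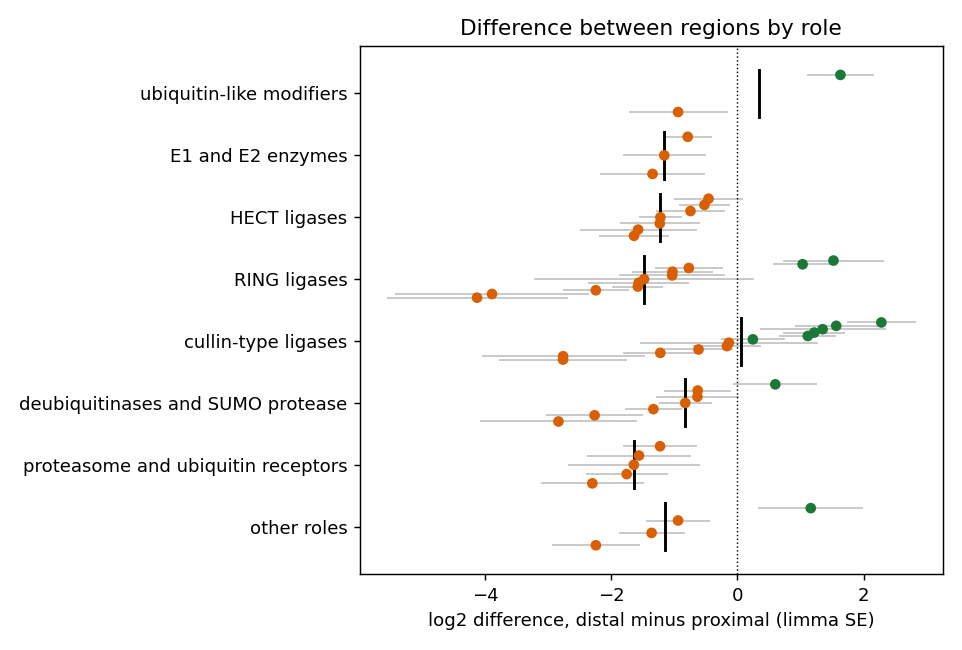
Log2 difference, distal minus proximal, of each of the 51 genes by role (points, green where higher in distal and orange where higher in proximal matrix), with limma's SE as grey lines and the median of each role as a black bar. The 7 HECT ligases and the 5 proteasome and ubiquitin receptor genes all lie left of 0, while the 12 cullin-type genes spread to both sides around a median of 0.05. Points are fitted differences, not bounds, also for the 8 genes not above background in their lower region.

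The 5 members at the proteasome end of the pathway all had higher intensities in proximal matrix. In these 5 the regions did not overlap, beside the same 18.3% of all probe sets with proximal matrix above and 73.0% of the other listed genes in either direction. Of the proteasome genes in the authors' list Psmb5 is the only member, and the other 3, given further below, went both ways. Psmb5, a catalytic subunit of the proteasome core, had 112 and 28.2 for distal replicates 1 and 2 and 344 and 224 for proximal replicates 1 and 2, with distal replicate 2 not above background (log2 difference -2.30 ± 0.82). Rad23b, a shuttle factor that carries ubiquitinated proteins to the proteasome, had 102 and 354 in distal matrix, against 394 and 502 in proximal matrix, with distal replicate 1 far below the other arrays. Ubqln1, a shuttle factor and chaperone of membrane proteins, had 179 and 67.2 in distal matrix, against 382 and 361 in proximal matrix (log2 difference -1.76 ± 0.65). Ufd1l (now Ufd1), a cofactor with which the Vcp ATPase extracts ubiquitinated proteins, had 145 and 35.1 in distal matrix, against 162 and 274 in proximal matrix, a small gap between distal replicate 1 and proximal replicate 1. Of the 4 genes named, Rad23b alone was above background on all 4 arrays.

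Of the 6 deubiquitinases and the SUMO protease Senp2, 6 genes had higher intensities in proximal matrix and 1, Otud5, in distal matrix. Usp22, the deubiquitinase of the SAGA chromatin complex, had 46.0 and 72.9 for distal replicates 1 and 2 and 322 and 241 for proximal replicates 1 and 2. Neither distal array was above background, and proximal matrix was at least 4.07-fold higher, the largest bound among the genes read by their brightest probe set. Usp53, a member of the family known from cell junctions of the inner ear in mouse, had 697 and 232 in distal matrix, against 1122 and 918 in proximal matrix without overlap (log2 difference -1.33 ± 0.46). Usp24 had 442 and 389 in distal matrix, against 709 and 764 in proximal matrix, and its replicates lay close in both regions (log2 difference -0.83 ± 0.42). Usp34, known from Wnt signalling as a regulator of axin, had 197 and 108 in distal matrix, against 197 and 260.5 in proximal matrix, where distal replicate 1 and proximal replicate 1 were nearly equal. Usp1, which acts in the Fanconi anaemia pathway of DNA repair, had 176 and 472 in distal matrix, against 559.8 and 356 in proximal matrix, and its log2 difference of -0.63 turned to 0.081 without distal replicate 1. Otud5 had 197 and 248 in distal matrix, against 109 and 195 in proximal matrix, with distal replicate 1 barely above proximal replicate 2.

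At the start of the relay, Uba3, the catalytic subunit of the enzyme that activates NEDD8 for cullins, had 557 and 538 for distal replicates 1 and 2 and 911 and 984 for proximal replicates 1 and 2, with close replicates and no overlap (log2 difference -0.79 ± 0.39). Ube2f, the E2 that hands NEDD8 to CUL5, had 403 and 71.0 in distal matrix, against 462 and 310.0 in proximal matrix. Distal replicate 2 alone was low, and without it the log2 difference of -1.16 turned to 0.091. Birc6, a giant E2 that restrains apoptosis, had 94.2 and 48.9 in distal matrix, against 145 and 206 in proximal matrix. The ubiquitin-like modifiers went different ways. Ubl5, a ubiquitin-like protein that is not attached to substrates in the usual manner and acts in splicing, had 838 and 432 for distal replicates 1 and 2 and 249 and 151 for proximal replicates 1 and 2, without overlap and with the highest proximal value below the lowest distal one (log2 difference 1.63 ± 0.53). Atg12, the modifier that is joined to Atg5 in autophagy, had 257 and 46.3 in distal matrix, against 163 and 271 in proximal matrix, and its log2 difference of -0.94 turned to 0.29 without distal replicate 2.

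A few members carry a ubiquitin term without being enzymes of the pathway. Polr2a, the largest subunit of RNA polymerase II, and Nlk, a kinase that acts on Tcf and Lef factors, were chosen for binding of a ubiquitin ligase, Nup62, a nucleoporin, for ubiquitin binding, and Gspt1, a translation termination factor, for protein ubiquitination. Polr2a had 201 and 196 in distal matrix, against 407 and 641 in proximal matrix (log2 difference -1.36 ± 0.52), and Nup62 had 205 and 302 in distal matrix, against 408 and 561 in proximal matrix, both without overlap. Gspt1 had 179 and 42.9 for distal replicates 1 and 2 and 309 and 560.0 for proximal replicates 1 and 2, with distal replicate 2 not above background and the regions apart (log2 difference -2.25 ± 0.70). Nlk had 95.5 and 331 in distal matrix, against 65.2 and 96.8 in proximal matrix, and its regions overlapped by the nearly equal values of distal replicate 1 and proximal replicate 2.

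For 6 members the list holds a second probe set, and in 5 of these genes both probe sets pointed the same way. Each had to pass the list's fold cut-off on these arrays, and probe sets outside the list were not read. Agreement between the listed ones is therefore a description only. The exception was Fbxl20. Its brighter probe set read 516 and 1285 in distal matrix, against 269.6 and 104 in proximal matrix, and its dimmer one read 46.5 and 9.0 in distal matrix, against 517 and 334 in proximal matrix. The dimmer probe set was not above background in distal matrix and at least 6.06-fold higher in proximal matrix, and each showed no overlap in its own direction. The authors' deposited table has the same opposition, with a fold of 4.62 higher in distal matrix for the first and of 6.62 higher in proximal matrix for the second. As the mean of both probe sets the log2 difference of Fbxl20 was -1.03. The identifiers of both end in the suffix that the array's maker uses for probe sets that can read several transcripts, and the cause of the opposition was not tested.

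Trip12 and Usp53 were read alike by their probe sets. The dimmer one of Trip12 had 172 and 194 in distal matrix, against 412 and 630.1 in proximal matrix (log2 difference -1.48), and that of Usp53 had 129 and 80.8 in distal matrix, against 228 and 283 in proximal matrix (log2 difference -1.31). In both genes each proximal array exceeded each distal one by either probe set. Ubl5's dimmer probe set had 497 and 29.2 in distal matrix, against 43.3 and 106 in proximal matrix, where distal replicate 1 alone stood far above the other arrays. Senp2, which removes SUMO from proteins, had 8.0 and 80.6 in distal matrix, against 649 and 51 in proximal matrix by its brighter and 11.7 and 39.1 in distal matrix, against 133 and 144 in proximal matrix by its dimmer probe set. Neither was above background in distal matrix, with bounds of at least 2.66-fold and 2.02-fold towards proximal matrix, and the brighter one overlapped because proximal replicate 2 was low. Its bound rests on proximal replicate 1, since proximal replicate 2, at 51, lay below the distal background levels of 58.0 and 81.0. The dimmer probe set of Spsb1 had 122 and 2378 in distal matrix, against 2.8 and 45 in proximal matrix, and its distal arrays differed so widely that the bound of at least 8.13-fold rests largely on distal replicate 2.

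**Figure D3:**
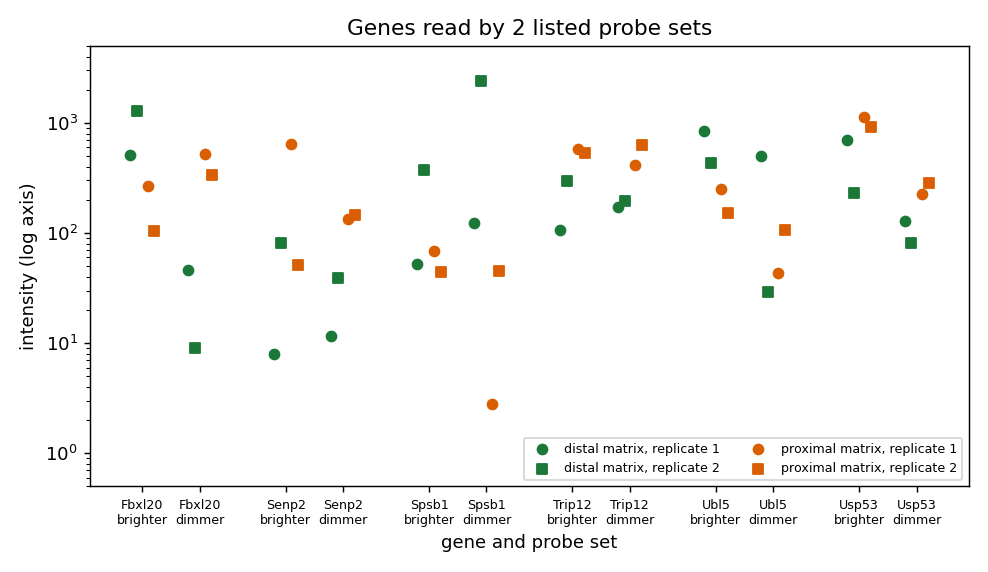
Intensities (log axis) of the 6 genes with 2 listed probe sets, with the brighter and the dimmer probe set side by side, distal arrays in green left of proximal arrays in orange. The probe sets of Fbxl20 order the regions oppositely, while both probe sets of Trip12 and of Usp53 place the proximal arrays above the distal ones.

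The authors' list rests on log2 values of its own, whose normalization is unknown here, so it can be set beside the value table. In the authors' deposited table, 12 members were higher in distal and 39 in proximal matrix, with folds by the brightest probe set from 1.992 for Uba3 to 4.85 for Mdm2 and a median of 2.30. Just inside the threshold lay Uba3 and Rbbp6 (1.994). Genes just outside it are not in the list and are not analysed here. The direction was the same in the value table for 50 of the 51 members, and for 1067 of the other 1082 listed genes. Lrrc41 was the member that differed, with a log2 difference of 1.05 in the authors' deposited table and of -0.14 in the value table. Without distal replicate 1 that of Lrrc41 was 1.79, and without proximal replicate 1 it was 0.27. Kdm2b, to which the authors' deposited table gives a 2.28-fold higher proximal level, had a log2 difference of -0.17 ± 0.54 in the value table, and Fbxw2, 2.04-fold higher in distal matrix there, had 0.24 ± 0.50. Rnf128 and Rnf20, not above background in distal matrix, have only bounds in the value table, at least 2.64-fold and at least 2.22-fold higher in proximal matrix, beside folds of 2.33 and 2.38 in the authors' deposited table. Across the 51 genes the differences had a Pearson correlation of 0.83, beside 0.85 across all listed genes. These are descriptions only, since both sources come from the same arrays and genes are not independent replicates.

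**Figure D4:**
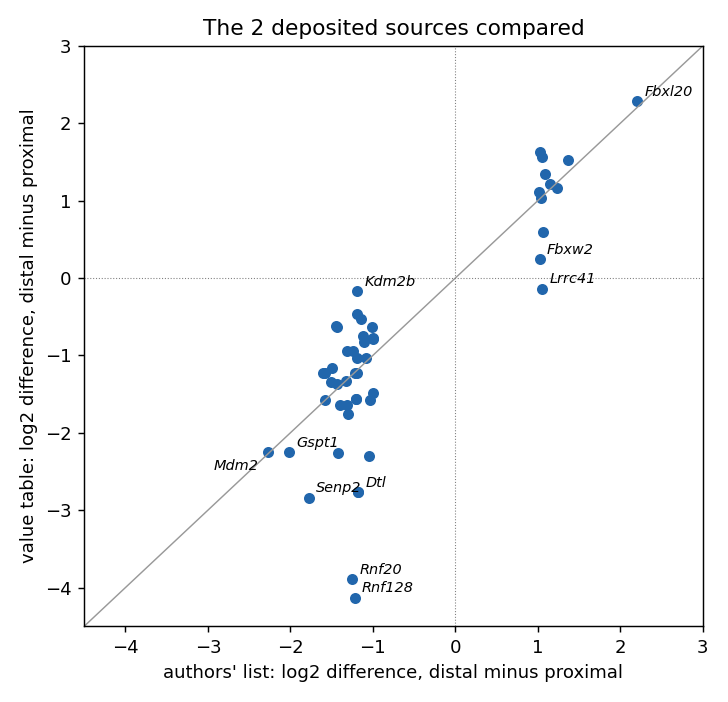
Log2 difference, distal minus proximal, of the 51 genes in the authors' list (horizontal) and in the deposited value table (vertical), with the line of equality in grey. Lrrc41 is the single gene with opposite signs, Kdm2b and Fbxw2 lie near 0 in the value table, and the vertical positions of Rnf128 and Rnf20 rest on distal intensities not above background.

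The distal arrays differed from each other more than the proximal arrays did for most members. The median absolute log2 gap between replicates was 1.32 for the distal and 0.52 for the proximal arrays, and the distal gap was the larger in 38 of 51 genes. In the other listed genes the median gaps were 1.04 and 0.58, with the distal gap larger in 65.9%, and over all probe sets they were 1.20 and 0.99. Log2 values of all probe sets correlated at 0.67 between the distal arrays and at 0.72 between the proximal arrays. Correlations between arrays of different regions ran from 0.66 to 0.72, so the distal arrays were no more alike than arrays of different regions. The proximal arrays, at 0.72, were about as alike as the closest pair of arrays from different regions. Of the 39 members that the authors list as higher in proximal matrix, distal replicate 2 was the lowest of the 4 arrays in 25 (64.1%) and distal replicate 1 in 14 (35.9%). Of the other listed genes in that direction, 52.5% were lowest on distal replicate 2 and 44.7% on distal replicate 1. The authors' fold on these arrays set the groups, so the region of the lowest array and of the higher medians follows from it. The median intensities of the 39 members were 178 and 102 on distal replicates 1 and 2, against 344 and 314 on proximal replicates 1 and 2. For the 12 listed as higher in distal matrix the medians were 407 and 404 in distal matrix, against 158 and 173 in proximal matrix. Without distal replicate 2 the median log2 difference of all 51 was -0.74, with 40 still higher in proximal matrix, and without distal replicate 1 it was -1.09, with 38.

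**Figure D5:**
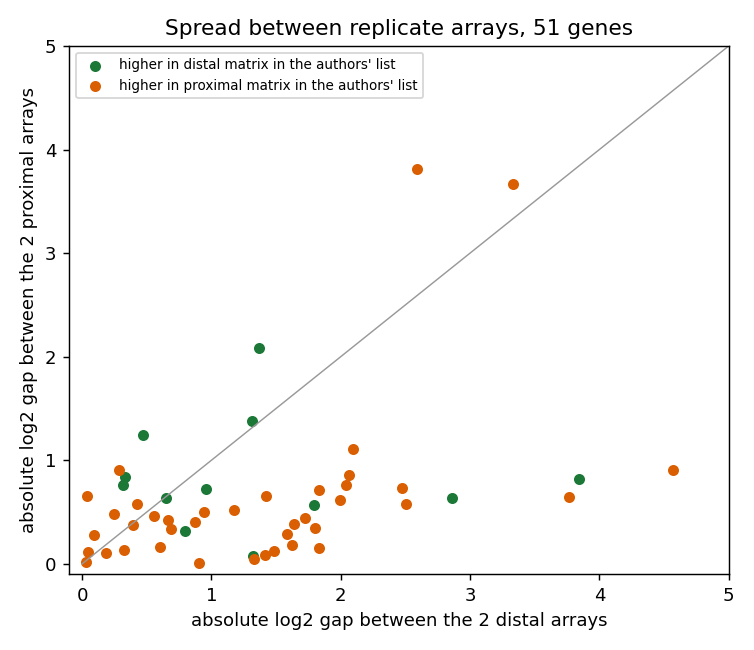
Absolute log2 gap between the 2 distal arrays (horizontal) and between the 2 proximal arrays (vertical) for each of the 51 genes, coloured by the region in which the authors' list has the gene higher, with the line of equality in grey. Of the 51 points, 38 lie below the line, where the distal arrays differed more.

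Beyond the rule, the members shared an annotation to the nucleus in 25 of 51 genes (49.0%, against 32.4% of the other listed genes) and to the cytoplasm in 23 (45.1% against 25.6%). Zinc ion binding, a property of RING domains, was annotated in 17 (33.3% against 11.6%), while 0 of the 51 were annotated to the mitochondrion, against 7.02%. These shares describe the annotation and follow in part from what ubiquitin enzymes are.

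Symbol patterns for E1, E2, HECT, RING, cullin, deubiquitinase, proteasome, receptor and autophagy genes matched 39 further listed genes that are not members. Of these, 15 had higher intensities in distal and 24 in proximal matrix, with a median log2 difference of -0.94. limma called 2 of them, both higher in distal matrix, Klhdc2 (1.81) and Dcun1d1 (2.02), and 0 in proximal matrix. It called 0.0666% of all probe sets and 19 of the 1082 listed genes that are not members. The 39 were likewise listed for their fold on these arrays, so nothing is read from the calls. Without a variance trend limma called 0 probe sets in all, with 3010 at an unadjusted p under 0.05. All 7 listed HECT ligases were members already. The further proteasome genes were mixed: Psmc6, an ATPase of the regulatory particle, had a log2 difference of -1.06, against 1.0 for Psmd11, a lid subunit, and 1.48 for Psmf1, an inhibitor of the proteasome. Trim28, a RING corepressor, had 133 and 136 in distal matrix, against 406 and 419 in proximal matrix. The patterns went by symbol alone, so the counts for the 39 are not of pathway genes alone. The patterns took in Elovl7, a fatty acid elongase, and Uhrf1bp1l, which are known for other functions. Wdr and Phf genes were also matched, such as Wdr12, Wdr35, Wdr44, Phf3, Phf13 and Phf20, whose part in the pathway was not checked.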

How the data were processed

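Total RNA from distal and proximal nail matrix was hybridised to Affymetrix Mouse430_2 arrays, 2 per region, which limits the precision of every value. Values deposited by the authors are a linear intensity for each probe set, and their summarisation and scaling are not given. Per the file headers, the authors' list came from a fold change step with a cut-off of 1.99 and distal matrix as control. Its fold is an unsigned ratio, per the file headers, with the direction in another column. The list's region columns are the authors' deposited log2 values, whose difference is log2 of the fold.

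Intensities under 1 were set to 1 and log2 was taken. After 64 control probe sets were left out, 45037 were fitted with limma 3.58.1 in R 4.3.3 (eBayes with a variance trend, two-sided, Benjamini-Hochberg, threshold 0.05). No filter on low values was used, so all 51 genes were fitted. Where both arrays of the lower region were not above the Bacillus subtilis controls, the fold is a bound against that level. For Pias2 no such bound could be given. Log2 differences are those of the fit and are not bounded. The fit was tested on simulated data, with an outcome that is not reported here.

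Gene names come from the list. All 51 genes matched a RefSeq gene by identifier (GRCm38.p6), and 1 symbol was updated. Members, lists, roles and alternatives were chosen with earlier results of these data known. The rule for named genes took those limma called, up to 8 with the largest difference in each direction without overlap and above background, the brightest of each role list, those with 2 probe sets, the extremes of the authors' fold and those with opposite signs in both sources. Towards distal matrix 7 members had no overlap, and all 7 were taken. The remaining members are given to account for each, except 2 that count in every total but are not reported here by name. Alternatives were quantile normalization, median centring, log2 of the intensity plus 16, the brighter probe sets, a replicate block, no variance trend, leaving out each array, the mean over probe sets, the authors' log2 values and, added after seeing the data, scaling to 18 hybridization controls.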

Additional observations from a re-analysis of the deposited data

How the results depend on the processing

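With 11 of 51 genes higher in distal matrix by the main settings, this count ran from 10 to 13 under the alternatives. The 38 genes without overlap became 32 under median centring. They were 38 or 39 under the other scalings, the brighter probe sets and the mean over probe sets. With an array left out they were 43 to 47, where fewer values had to be apart. Of all 45037 probe sets, 15649 did not overlap by the main settings, 15100 under median centring and 28608 to 31811 with 1 array left out. The median log2 difference of -1.04 was -0.94 with log2 of the intensity plus 16, -1.19 with the authors' log2 values, -1.55 with scaling to hybridization controls, which moved the median of all probe sets from -0.06 to -0.57, and -1.09 to -0.74 with 1 array left out. It was -0.94 with genes not above background at their bound. Of the 51 genes, 43 kept their direction in every alternative run on single genes. The others were Lrrc41 (0.13 with log2 of the intensity plus 16, 1.05 with the authors' log2 values, and -2.06 to 1.79 with 1 array left out), Fbxw2 (-0.27 with hybridization control scaling, and -0.15 to 0.64 with 1 array left out), Fbxl20 (-1.03 as the mean of its probe sets), and, each with 1 array left out, Usp1 (-1.34 to 0.081), Atg12 (-2.18 to 0.29), Spsb1 (-0.078 to 2.78), Ube2f (-2.41 to 0.091) and Pias2 (-3.39 to 0.42).

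The number of probe sets that limma called over the whole table, 30, was 9 under quantile normalization, 8 under median centring, 17 with log2 of the intensity plus 16, 2 among the brighter probe sets, 12 with hybridization control scaling and 0 without a variance trend, where 3010 had an unadjusted p under 0.05. It was 90 with the replicate block, and 4 to 899 with 1 array left out. Replicate numbers are shared by the regions, but the deviations of same-numbered arrays correlated at -0.01 over probe sets, so the numbers were not taken to pair the arrays. Without an array, the lone array of a region is assumed to vary like the others.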
